A study of Bos taurus with 12 samples.

Results

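Described here are the N6-methyladenosine (m6A) peaks in mRNA 5′UTRs of bovine myotubes that overlapped a peak in the myoblasts which formed them. The peaks came from 1 list for growing myoblasts (GM) and 1 list for differentiated cells (DM). A pair was formed from exactly 1 GM and 1 DM peak which shared 1 or more exonic bases on 1 strand, with neither peak touching another peak of the other list. Pairs were kept when the annotation of the DM peak began with the 5′UTR, whatever the annotation of the GM peak. Of 10239 such pairs, 1882 were in 5′UTRs, and they belonged to 1821 genes. The members were thus chosen by the presence of a peak in both lists and by its annotation, so fold enrichment, its ratio and the peak's place in the transcript are described here without a test.

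The cells were primary myoblasts that grew out of the longissimus dorsi of newborn Qinchuan cattle. GM cells were harvested subconfluent in DMEM/F12 growth medium rich in fetal bovine serum, and DM cells after 4 days in DMEM/F12 differentiation medium with a low concentration of horse serum; both media held penicillin and streptomycin. There were 3 cultures of GM and 3 of DM, with input and m6A-immunoprecipitated (IP) libraries from each, 12 in all. The methods speak of a single newborn animal, so p-values measure the spread between cultures and not between animals, and no genotype or further treatment was given.

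m6A is placed on nuclear RNA by a METTL3 and METTL14 methyltransferase complex with adaptors such as WTAP and RBM15B, can be removed by FTO and ALKBH5, and is bound by YTH domain readers. Most of it lies near stop codons and in 3′UTRs, while methylation of the 5′UTR has been tied to cap-independent initiation of translation and to stress responses. The antibodies used for m6A also bind m6Am, a modified adenosine next to the mRNA cap, and these marks cannot be told apart at the start of a transcript in these data. In skeletal muscle, myoblasts leave the cell cycle and fuse into myotubes that build sarcomeres.

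The labels were checked in the input libraries, where most but not all markers lay in the labelled direction. Of 6 myoblast markers 3 were called lower in DM and 0 higher. PAX7 was at 0.979 to 1.17 FPKM in GM and 0.0417 to 0.102 FPKM in DM. DES was at 446 to 465 FPKM in GM and 484 to 492 FPKM in DM. MKI67, a proliferation antigen, was at 16.5 to 18.7 FPKM in GM and at 0.712 to 1.2 FPKM in DM, and MYH3, embryonic myosin heavy chain, was at 269.9 to 275 FPKM in GM and 642 to 670.0 FPKM in DM. Of 10 myotube markers 7 rose and 1 fell in DM: ACTA1, skeletal actin, was at 87.3 to 128 FPKM in GM and 57.3 to 76.9 FPKM in DM. Both groups already expressed the differentiation factor MYOG, at 190.4 to 207 FPKM in GM and 226 to 253 FPKM in DM. Both were also rich in the fibroblast marker COL1A1, at 6634 to 6989.9 FPKM in GM and 7305 to 7584 FPKM in DM. Summed markers of endothelial, immune and erythroid cells stayed below 1 FPKM in every library and those of adipocytes at or below 3.16 FPKM. The gene table held only 4 of 5 endothelial, 2 of 5 immune and 1 of 3 erythroid markers, so these sums cover part of each list. None of the 8 fibroblast markers was called, and the part of the fibroblast transcripts in the peak values was not tested. In bulk samples, fewer cells of a type and less RNA per cell cannot be told apart.

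The place of the peaks was described along the annotated transcript. The 5′UTR label and the distance to the start come from the same annotation, so this is no independent check of the label. The DM peak covered the annotated start of its transcript in 1302 of the 1882 members (69.2%), against 2.18% of the shared 3′UTR pairs and 16% of the shared pairs in other exons. In 935 members the DM peak began at the very base of the annotated start. A further 126 members (6.70%) lay over 1000 bases from it, among them the peak of ZNF350 at 15281 bases, which the label alone does not show. Many of the peaks were long. Members spanned a median of 628 exonic bases in DM, 564 of them (30%) were longer than 1000 bases, and 1382 (73.4%) ran over several exon blocks. In 227 members (12.1%) the DM peak ran from the annotated start to the annotated end of the transcript. Zinc finger gene ZNF784 (chr18:61921781-61924820 of ARS-UCD1.2) is such a case, with the same 2530 exonic bases in both lists. In the GM list 1601 members were also annotated to the 5′UTR, 177 to another exon and 104 to the 3′UTR.

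Not every 5′UTR peak had a partner. Of 3794 such peaks in the DM list, 1882 entered a pair, 978 overlapped no GM peak and 934 took part in overlaps of several peaks. The GM list held 3174, of which 1686 entered a pair, 575 had no overlap and 913 were in overlaps of several peaks. At the edge of the rule, 16 members overlapped by 1 base only, among them CENPF, CHAF1A and TCAP, and the next smallest overlap was 30 bases. Just outside it, the DM peak of SLC6A20 missed its GM neighbour with a gap of 1 base, that of KLHL23 with 4 and that of CAMTA2 with 10. Most genes, 1764, had a single member, 53 had a pair of members and 4 had 3.

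Enrichment of IP over input at the members was moderate and slightly higher in the DM list. The median fold enrichment was 3.51 in GM and 3.83 in DM, between the 3′UTR pairs (3.75 and 3.96) and the pairs in other exons (2.85 and 2.97). The middle range of members, from the lower to the upper quartile, was 2.29 to 5.44 in GM and 2.43 to 5.86 in DM. The order of the members was largely kept, with a Spearman rho of 0.78 over 1882 pairs between the lists, which share annotation and antibody but no library. In 78 members (4.14%) both values were at least 10, compared with 3.37% of all shared pairs. Fold enrichment was lower in more abundant transcripts, with a rho against mean FPKM of -0.20 in GM and -0.23 in DM over 1871 pairs, and the same input libraries enter both measures. The false discovery rate was under 0.05 in both lists for 1737 members (92.3%).

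**Figure D1:**
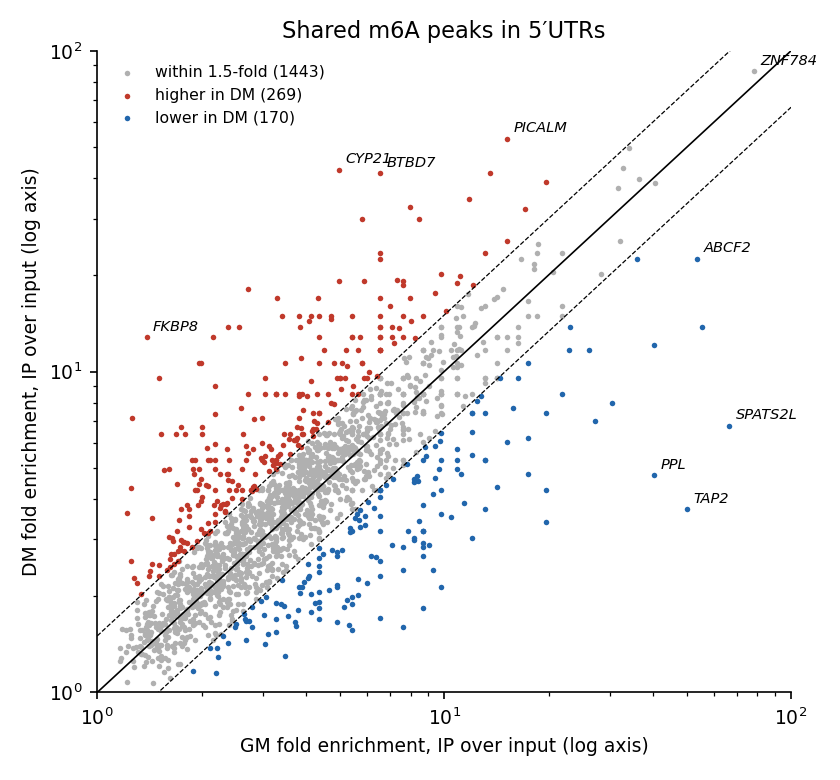
Fold enrichment of each of the 1882 members in the GM list (x axis) and the DM list (y axis), both on log axes, with the line of equal values and dashed lines at 1.5-fold. The 269 members higher in DM (red) and 170 lower in DM (blue) lie outside the dashed lines, and points line up in rows and columns at repeated values.

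The strongest peaks in both lists belonged to genes of varied function. ZNF784 had a fold enrichment of 78.4 in GM and 86.3 in DM, the highest of all members. MARVELD1, a membrane protein gene, came next by its lower value, with 40.6 and 38.8 over an identical stretch of 2842 exonic bases (chr26:18867898-18872334). CENPB, which encodes a centromere DNA-binding protein, had 36.5 in GM and 39.7 in DM. PTPN12, a tyrosine phosphatase gene, had 34.2 and 49.9, and the neurexophilin gene NXPH3 had 32.7 and 43.1. YWHAZ, a phosphoserine-binding adaptor gene, had 31.6 and 37.3, and CWC25, a splicing factor gene, 32.1 and 25.6. ABCF2 and the erythroid factor gene KLF1 were among these 10 although they were lower in DM, from 53.7 to 22.5 in ABCF2 and from 35.9 to 22.4 in KLF1. KLF1 mRNA was at or below 0.0880 FPKM in all 6 input libraries, so its peaks rest on very little transcript. The GM peak of KLF1 was annotated to the 3′UTR. EBAG9 completed the list with 21.8 and 23.4. Among these genes MARVELD1 mRNA rose, from 37.2, 37.2 and 37.1 FPKM in GM to 66.3, 68.3 and 65.0 FPKM in DM. All DM libraries were above all GM libraries, and the log2 difference was 0.82 ± 0.04 (SE; limma, Benjamini-Hochberg adjusted p = 3.7e-06), while its m6A ratio was -0.07 on the log2 scale.

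The m6A ratio moved past 1.5-fold in 439 members (23.3%), which is close to the 25.0% of all shared pairs. It was higher in DM in 269 members (14.3%, against 14.2% of all pairs) and lower in DM in 170 (9.03%, against 10.8%). The share of higher pairs among those past 1.5-fold was 61.3% for members, 55.3% for 3′UTR pairs and 57.3% for pairs in other exons. After centring on the median of all pairs 231 members were higher and 207 lower (52.7% higher), with 50% of both peaks shared 208 and 184 (53.1%), and with the 5′UTR label taken from the GM list 220 and 182 (54.7%), so the surplus of higher members depends on these choices. Of the 439 members past 1.5-fold, 69 were not under a false discovery rate of 0.05 in both lists. The median log2 ratio of DM over GM was 0.11 for members and 0.07 for all pairs. Members whose DM peak covered the annotated start had a median of 0.13 and were higher in 201 and lower in 99 cases, and those away from the start had a median of 0.07 with 68 higher and 71 lower. This split was made on the extent of the DM peak, with which the ratio moved, as given in the next paragraph. The part that extent plays in the split was not tested. Each ratio compares 1 deposited value per group and has no replicate error. Where the lists were held to identical peaks, 20 of 194 members were higher and 13 lower.

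The ratio moved together with the extent of the peak. Where the GM peak lay inside a longer DM peak, in 1127 members, the median log2 ratio was 0.19, with 17.9% higher and 4.44% lower. Where the DM peak lay inside a longer GM peak, in 269 members, it was -0.24, with 5.58% higher and 22.3% lower. The 292 members in which each peak reached past the other had a median of -0.03, and the 194 with identical blocks 0.04. All shared pairs showed the same order, with 0.18, -0.23, -0.03 and -0.02. DM peaks were longer than their GM partners in 1294 members (68.8%) and shorter in 364 (19.3%). Members were chosen by the annotation of the DM peak, and with the 5′UTR label in both lists 64.0% of 1601 were longer in DM. The median length over exons of all members was 458 bases in GM. It was the downstream edge that moved most often: the DM peak reached further downstream in 1106 members and ended at the same base in 399. The upstream edge was at the same base in 846 members and further out in DM in 790. Among 3′UTR pairs the edges were the other way round, with 2375 of 5146 sharing the downstream edge and 831 the upstream edge. Many DM peaks of members began at the annotated start, as given above, and the part that transcript ends play in these edges was not tested. The part that peak extent plays in the ratio was not tested.

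**Figure D2:**
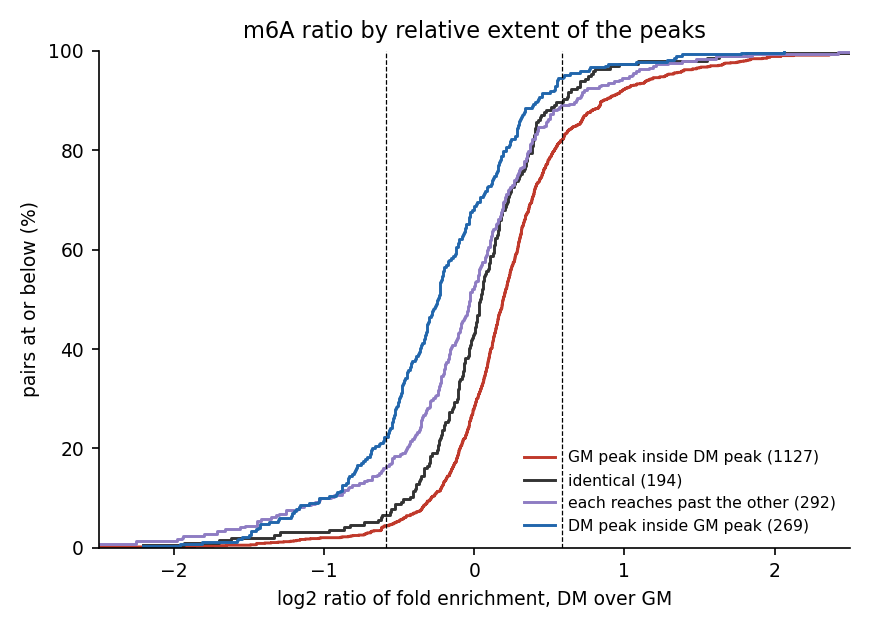
Cumulative share of members (y axis, percent) against the log2 ratio of fold enrichment, DM over GM (x axis), for the 4 classes of relative peak extent, with the number of pairs in brackets and dashed lines at 1.5-fold. The curve of members whose GM peak lay inside the DM peak is farthest to the right (median 0.19) and that of members whose DM peak lay inside the GM peak farthest to the left (median -0.24).

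The deposited fold enrichment came in steps. In the GM list 2107 of 6395 peaks with values from 4 to 10 (32.9%) were whole multiples of 1.09 within the rounding of the file, and in the DM list 2148 of 6932 (31.0%) were whole multiples of 1.06. At the other step sizes tried, the median share was 0.579% in GM and 0.591% in DM. The value 6.53 alone was listed for 604 GM peaks and 7.45 for 448 DM peaks. Among the members, 216 of the 1443 that stayed within 1.5-fold (15.0%) had a value on such a step in at least 1 list, against 121 of the 269 higher (45%) and 78 of the 170 lower (45.9%). Read numbers per peak were not used here, so the depth behind a single value is unknown.

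The members with the highest and the lowest ratios, among those with a false discovery rate under 0.05 in both lists, often had such values. The DM value was on a step in 9 of the 10 highest ratios, and the GM value in 9 of the 10 lowest. FKBP8, a mitochondrial immunophilin and mitophagy receptor gene (chr7:4632929-4634729), had the highest ratio, with a fold enrichment of 1.39 in GM and 12.8 in DM. Its GM peak of 210 exonic bases lay in an exon 1591 bases from the start, inside a DM peak of 448 bases that began at the start. CYP21, a steroid hydroxylase gene (chr23:27326531-27330230), went from 4.97 to 42.6 over an identical stretch of 2154 bases, with mRNA between 0.129 and 1.15 FPKM in the 6 libraries and below the limit for testing. BTBD7 went from 6.53 to 41.5, with 810 bases in GM and 1950 in DM. WDR25 went from 2.72 to 18.1, the chloride transporter gene CLCN6 from 2.15 to 12.8, FBXL21 from 2.39 to 13.8 and ZNF350 from 1.97 to 10.6. MRPL27, a mitochondrial ribosomal protein gene, went from 1.26 to 7.18 without a value on a step. CENPF and GMFG, an actin regulator gene, had lower mRNA in DM. GMFG was at 0.856, 1.32 and 1.10 FPKM in GM and at 0, 0 and 0.175 FPKM in DM. The groups did not overlap (limma; -0.98 ± 0.11 on the log2 scale, Benjamini-Hochberg adjusted p = 0.000258), at values close to the floor of the measurement.

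TAP2, which encodes a peptide transporter for antigen presentation (chr23:7146006-7162392), had the lowest ratio, with 50.1 in GM and 3.73 in DM. Its GM peak of 330 bases and DM peak of 300 bases shared only 121 bases. SPATS2L, an RNA-binding protein gene (chr2:88833153-88833513), went from 66.4 to 6.79, with the GM peak inside the DM peak. PPL, the gene of the cytoskeletal linker periplakin (chr25:3966460-3996373), went from 40.3 to 4.76. LARP4B, an RNA-binding protein gene, went from 19.6 to 3.41, the kinase gene DAPK3 from 9.80 to 2.13 and the lipid kinase gene DGKA from 55.5 to 13.8. CDK9, the kinase gene of a transcription elongation factor, went from 12 to 3.04, AMIGO1 from 27.2 to 7.00 and SAXO2 from 9.26 to 2.40. AMIGO1 mRNA was at 0.178 to 0.419 FPKM and SAXO2 mRNA at 0.110 to 0.154 FPKM in the 6 libraries, both below the limit for testing. RAPSN, which anchors acetylcholine receptors at the neuromuscular junction (chr15:77273422-77273571), went from 30.5 to 7.99 over an identical stretch of 150 bases. RAPSN mRNA was at 14.5, 15.0 and 16.9 FPKM in GM and 14.4, 12.1 and 12.7 FPKM in DM. All DM values were below the GM values by a narrow margin, and the difference did not pass the test (limma; -0.23 ± 0.08 on the log2 scale, Benjamini-Hochberg adjusted p = 0.0507).

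Members with identical blocks in both lists compare the same stretch of transcript, and the ones named here were picked after their values were seen. PICALM, a clathrin assembly gene, went from 15.2 to 53.2 over 807 bases. ALKBH3, a nucleic acid demethylase gene, went from 4.72 to 14.6, CDC42EP2, an effector of a small GTPase, from 11.8 to 34.6 and the tetraspanin gene CD82 from 7.98 to 17. In the other direction IGSF8 went from 19.6 to 4.26 over 91 bases, with a DM false discovery rate above 0.05, and INPP4A, a lipid phosphatase gene, from 14.2 to 4.37. NFE2L2, the antioxidant response transcription factor gene, went from 7.08 to 2.89 over 417 bases (chr2:19617026-19638928), neither value on a step. Of the 33 members with identical blocks past 1.5-fold, 6 of the 20 higher and 7 of the 13 lower had a value on a step.

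The mRNA of the member genes was tested across all 12302 genes that averaged 0.5 FPKM or more, of which 11.8% were called at an adjusted p under 0.05 and a fold change over 1.5. Of the 1821 member genes, 1810 were in the gene table and 1678 passed the limit on expression. Among these 79 rose in DM (4.71%, against 4.89% of all tested genes) and 95 fell (5.66%, against 6.88%). The share called, 10.4%, was thus near that of all genes. With TPM in place of FPKM, which moved the median over all genes from -0.05 to 0.06 on the log2 scale, 124 of 1720 member genes rose (7.21%) and 80 fell (4.65%), against 1046 (7.75%) and 851 (6.31%) of 13494 genes, so the split between rises and falls depends on the scaling. In 173 of the 174 called member genes the GM and DM libraries did not overlap (99.4%, against 99.5% of all called genes). The median log2 fold change was -0.04 for member genes and -0.05 for all genes. Member genes were more abundant than those of all pairs, with a median over pairs of 10.5 against 7.26 FPKM.

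The 12 largest mRNA rises and 12 largest falls among member genes are named after their values were seen. SLN, which encodes the calcium pump inhibitor sarcolipin, was at 1.57, 1.34 and 1.35 FPKM in GM and 49.9, 46.1 and 47.0 FPKM in DM. The groups were far apart, and the log2 difference was 4.33 ± 0.06 (limma, Benjamini-Hochberg adjusted p = 2.36e-08). MEF2C, a transcription factor gene of muscle differentiation, was at 7.5, 8.04 and 7.84 FPKM in GM and 71.2, 68.2 and 70.9 FPKM in DM. It did not overlap between groups either (log2 difference 3.02 ± 0.05; limma, Benjamini-Hochberg adjusted p = 2.36e-08). The rises also held MYOT, a Z-disc protein gene, TRIM54, LMOD2 and LMOD3, which nucleate thin filaments, the small heat shock gene HSPB3, and the receptor genes NPR3 and ADGRD1. The squalene epoxidase gene SQLE of sterol synthesis, the hexosamine pathway gene GFPT2 and TNFSF18, a tumour necrosis factor family ligand gene, completed them. The m6A ratio was within 1.5-fold in 10 of these 12 genes, beside 76.7% of all members. MEF2C had a fold enrichment of 2.66 in GM and 2.71 in DM, SQLE 3.90 and 3.88, LMOD3 4.82 in both, and LMOD2 6.07 and 5.64. MYOT, at 3.78 and 2.61, and NPR3, at 3.46 and 5.10, were just inside the limit. SLN and TNFSF18 were past it, at 3.17 and 5.73 for SLN and at 2.62 and 4.28 for TNFSF18. The GM peak of SLN, of 292 bases, was annotated to the 3′UTR, 4218 bases from the start. It lay inside a DM peak of 670 bases that covered the start.

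Among the falls, DEPDC1, a gene linked to mitosis, was at 8.27, 8.32 and 7.43 FPKM in GM and 0.659, 0.580 and 0.639 FPKM in DM. Its GM libraries were all far above its DM libraries (limma, Benjamini-Hochberg adjusted p = 2.4e-07), while its fold enrichment was 2.13 and 2.07. TROAP and CKAP2, both linked to the mitotic spindle, had fold enrichments of 7.26 and 7.45 (DM false discovery rate above 0.05) and of 3.12 and 3.57. The condensin gene NCAPG2 had 2.06 and 2.98, the cyclin-dependent kinase subunit gene CKS1B 2.61 and 3.87, and GTSE1 4.36 and 3. ID2, an inhibitor of myogenic factors, was at 46.6, 45.7 and 44.7 FPKM in GM and 15.9, 18.1 and 16.2 FPKM in DM. It was lower in every DM library (limma, Benjamini-Hochberg adjusted p = 1.19e-06), with an m6A fold enrichment of 1.73 and 1.72. In 4 of these 12 genes, CENPF, CEP55, FGF7 and CENPS, the m6A ratio was past 1.5-fold and higher in DM, beside 14.3% of all members, and the CENPF peaks shared 1 base only.

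**Figure D3:**
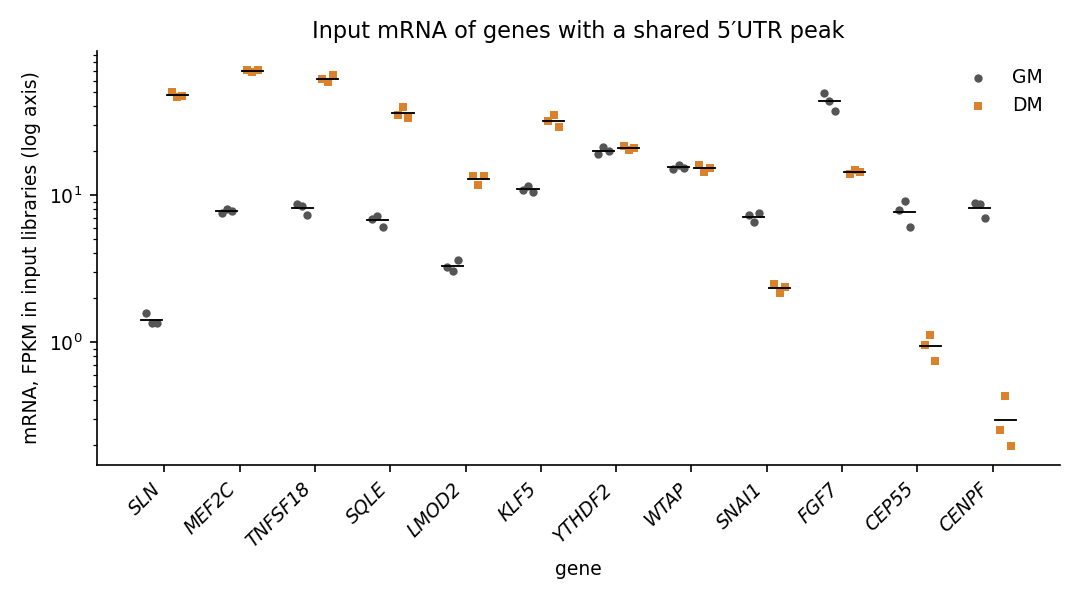
Input mRNA of 12 genes with a shared 5′UTR peak (y axis, FPKM on a log axis), with 1 point per library for GM (circles) and DM (squares) and a bar at the mean of 3. SLN lies at 1.34 to 1.57 FPKM in GM and 46.1 to 49.9 FPKM in DM, CENPF falls to 0.196 to 0.432 FPKM in DM, and YTHDF2 and WTAP overlap between the groups.

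The m6A ratio and the mRNA change of a member share the input libraries, so they are set side by side only. Of the 1736 members whose gene was tested, 28 had m6A higher and mRNA lower in DM, 4 had both higher, 11 had m6A lower and mRNA higher, and 8 had both lower. Over all 9068 such pairs the counts were 114, 39, 81 and 34. In shares this was 1.61%, 0.230%, 0.634% and 0.461% of members and 1.26%, 0.430%, 0.893% and 0.375% of all pairs, and the difference was not tested. With an m6A ratio within 1.5-fold, the mRNA of 66 members was called higher and that of 65 lower. Without a call in mRNA, 205 members had m6A higher and 131 had it lower in DM.

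Among members with higher m6A and lower mRNA, CENPF encodes a kinetochore protein (chr16:68988927-68991907). Its fold enrichment was 1.51 in GM and 9.58 in DM, from peaks that shared 1 base. CENPF mRNA was at 8.76, 8.65 and 6.93 FPKM in GM and at 0.250, 0.432 and 0.196 FPKM in DM. The fall was much larger than the spread (limma; -2.81 ± 0.11 on the log2 scale, Benjamini-Hochberg adjusted p = 7.2e-07). CEP55, needed for the final cut of cell division, had a fold enrichment of 1.96 and 4.97, and its mRNA was at 7.88, 9.03 and 6.05 FPKM in GM and 0.948, 1.12 and 0.741 FPKM in DM. The GM libraries all lay above the DM libraries (log2 difference -2.15 ± 0.13; limma, Benjamini-Hochberg adjusted p = 8.07e-06). FGF7, a growth factor gene, had 2.77 and 4.29, with mRNA at 49.1, 43.5 and 37.4 FPKM in GM and 13.9, 14.7 and 14.4 FPKM in DM, a fall in every library. The centromere protein gene CENPS had 1.64 and 3.04 and the water channel gene AQP11 2.28 and 3.83, with log2 fold changes of mRNA of -1.43 and -1.13.

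The 4 members with both measures higher were few enough to name. SLN (chr15:17267316-17271854), whose GM peak was annotated to the 3′UTR, is given above. TNFSF18 mRNA was at 8.64, 8.45 and 7.30 FPKM in GM and 61.0, 58.7 and 65.7 FPKM in DM, far apart (log2 difference 2.78 ± 0.07; limma, Benjamini-Hochberg adjusted p = 2.05e-07). XYLT1, which starts proteoglycan chains (chr25:15541403-15732918), had a fold enrichment of 6.53 and 12.8, both on steps, and mRNA at 5.31, 5.64 and 6.59 FPKM in GM and 14.6, 14.2 and 14.4 FPKM in DM. The DM libraries were all higher (log2 difference 1.17 ± 0.08; limma, Benjamini-Hochberg adjusted p = 9.92e-06). The extracellular protease gene ADAMTS6 had 2.03 and 3.13, and its mRNA rose by 0.84 ± 0.06 on the log2 scale (limma, Benjamini-Hochberg adjusted p = 1.72e-05).

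With lower m6A, mRNA rose in PPL, from 2.37, 2.40 and 2.42 FPKM in GM to 5.19, 5.42 and 5.27 FPKM in DM. The groups were well separated (limma; 0.89 ± 0.06 on the log2 scale, Benjamini-Hochberg adjusted p = 1.17e-05). KLF5, a transcription factor gene (chr12:47799502-47799651), had a fold enrichment of 2.69 and 1.46, and its mRNA was at 10.8, 11.5 and 10.5 FPKM in GM and 31.6, 34.7 and 29.0 FPKM in DM. Every DM library was above every GM library (log2 difference 1.46 ± 0.07; limma, Benjamini-Hochberg adjusted p = 2.59e-06), and the DM peak of 150 bases lay inside a GM peak of 330. RARRES2, the gene of the adipokine chemerin, had 15.2 and 6.03 over an identical stretch, and SORT1, a sorting receptor gene, had 13.1 and 5.32 with a DM false discovery rate above 0.05. Their mRNA rose by 1.07 and 1.05 on the log2 scale. ENSBTAG00000054003, which has no symbol in the files, had 9.26 and 4.14 with an mRNA rise of 1.08.

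Both measures were lower for FOXP4, a forkhead factor gene (chr23:15366695-15366784), with a fold enrichment of 4.24 and 1.90 and mRNA at 16.7, 16.8 and 17.8 FPKM in GM and 8.94, 9.16 and 8.69 FPKM in DM. All DM libraries were lower (log2 difference -0.86 ± 0.05; limma, Benjamini-Hochberg adjusted p = 7.61e-06). TSPAN9, a tetraspanin gene, had 3.27 and 1.90 and DCBLD2, a membrane protein gene, 7.62 and 2.84 (DM false discovery rate above 0.05), with mRNA log2 fold changes of -0.89 and -0.83. A 3′UTR pair of TSPAN9 was past 1.5-fold higher in DM, at 3.01 and 4.64. The 3′UTR pairs of FOXP4 (7.64 and 10.9) and DCBLD2 (2.19 and 2.18) stayed within 1.5-fold. CHAF1A, a subunit of the chromatin assembly factor of S phase, had 8.71 and 1.83 in peaks that shared 1 base and were above a false discovery rate of 0.05 in both lists, and a second member of the gene had 6.37 and 6.98. FABP7, a fatty acid-binding protein gene, had 3.38 and 1.89, and its mRNA fall of 0.77 on the log2 scale was lost when DM replicate 3 was left out (-0.55).

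**Figure D4:**
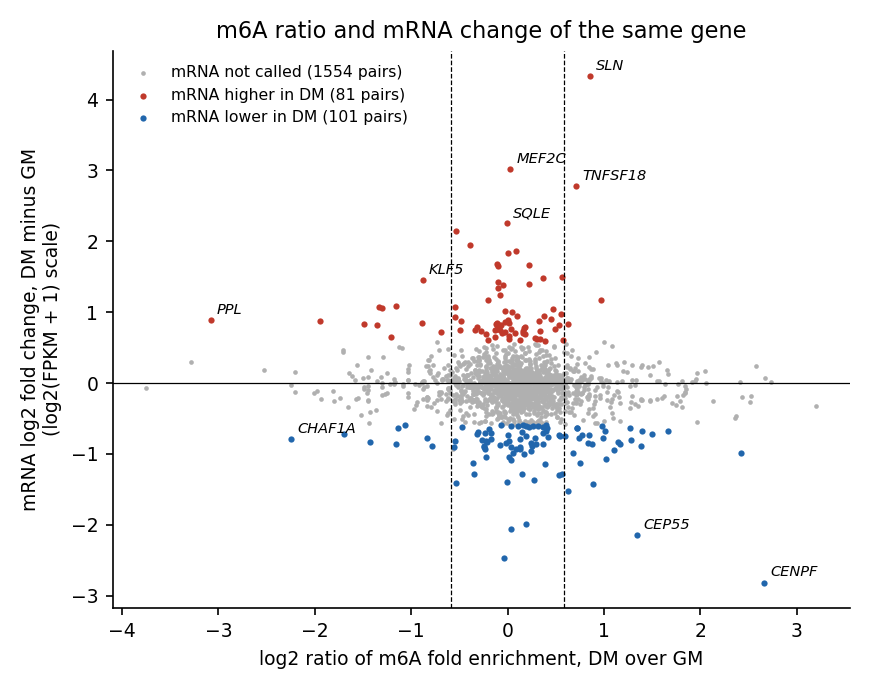
mRNA log2 fold change of the gene (y axis, DM minus GM on the log2(FPKM + 1) scale) against the log2 ratio of m6A fold enrichment (x axis, DM over GM) for the 1736 members whose gene was tested, with mRNA calls in red and blue and dashed lines at 1.5-fold. Of the largest mRNA rises, MEF2C (0.03) and SQLE (-0.01) lie close to an m6A log2 ratio of 0, SLN (0.85) and TNFSF18 (0.71) lie past the right dashed line, and CENPF, at 2.67 and -2.81, lies farthest to the lower right.

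Genes of the m6A machinery carried 7 members in 5 genes, and none of the 25 tested genes of the list was called in mRNA. The readers YTHDF2, YTHDF3 and YTHDC1 and the adaptors WTAP and RBM15B held these members. Over all tested genes 4.89% rose and 6.88% fell in mRNA, for comparison with this list and those below. YTHDF2 had a fold enrichment of 6.53 and 11.7 in the member at chr2:124739891-124740249, the only one of the 7 past 1.5-fold, with both values on steps. YTHDF2 mRNA was at 19.1, 21.1 and 19.8 FPKM in GM and 21.7, 20.2 and 20.9 FPKM in DM, which overlap. The other YTHDF2 member had 3.59 and 3.91. YTHDF3 had 2.65 and 3.37 in its upstream member and 4.15 and 5.53 in its downstream one. WTAP had 4.68 and 5.93, YTHDC1 8.80 and 9.73 and RBM15B 1.39 and 1.64. The median log2 ratio of the 7 was 0.34, beside 0.11 for all members.

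Myogenic regulators carried 8 members, of which 2 were lower past 1.5-fold in DM and none higher, beside 9.03% and 14.3% of all members. Of 43 tested genes of that list, 5 rose and 15 fell in mRNA, and 4 of the genes with a member were called: MEF2C and KLF5 rose, and ID2 and SNAI1 fell. SNAI1, a repressor of differentiation genes, was at 7.26, 6.59 and 7.48 FPKM in GM and 2.46, 2.15 and 2.38 FPKM in DM. It was lower in all DM libraries (limma; -1.28 ± 0.07 on the log2 scale, Benjamini-Hochberg adjusted p = 4.64e-06), with an m6A fold enrichment of 5.57 and 6.18. MYMK, the fusion protein myomaker, had 4.65 and 5.45 over an identical stretch, and its mRNA was at 37.5, 38.6 and 47.2 FPKM in GM and 48.2, 47.5 and 46.1 FPKM in DM. The groups overlapped, and MYMK was not called (limma, Benjamini-Hochberg adjusted p = 0.083). TEAD4, a partner of the YAP coactivator, had the lowest ratio of the list, 13.1 in GM and 3.73 in DM, over peaks of 91 and 61 bases with the GM value on a step. NFIX had 3.63 and 3.90 and TEAD1 1.38 and 1.24.

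Sarcomere and contraction genes rose as a list, with 35 of 54 tested genes higher in mRNA and 1 lower (none lower by TPM), and 10 genes of the list carried 11 members. Of these 10 genes 6 rose and none fell, beside 4.89% and 6.88% of all tested genes. Of the 11 members 1 was past 1.5-fold higher and 1 lower, beside 14.3% and 9.03% of all members. LMOD2 was at 3.25, 3.04 and 3.63 FPKM in GM and 13.5, 11.7 and 13.4 FPKM in DM, with no overlap (limma; 1.68 ± 0.08 on the log2 scale, Benjamini-Hochberg adjusted p = 1.76e-06). TNNT1, slow skeletal troponin T, had a fold enrichment of 4.05 and 5.61, and its mRNA rose from 23.6, 24.2 and 23.3 FPKM to 56.4, 43.2 and 50.5 FPKM. TNNC2, fast troponin C, had 3.40 and 3.15 with mRNA at 345, 325 and 442 FPKM in GM and 676, 660.3 and 657 FPKM in DM. Both troponin genes were higher in every DM library. TPM2, a tropomyosin gene, had 8.17 and 2.98 in a DM peak of 90 bases with a false discovery rate above 0.05, and 3.50 and 3.55 in its other member. TCAP, which caps titin, had 1.62 in DM, and its pair shared 1 base with a GM peak of 2.40 that the list gives to the 3′UTR of a neighbouring gene. In 20 members in all the lists name different genes. TCAP mRNA spread widely in DM, at 0.640, 0.570 and 3.88 FPKM against 2.41, 3.71 and 4.37 FPKM in GM, and was not called, but it was without DM replicate 3 (-1.46 on the log2 scale) and with the replicate number as a block (-0.93; limma, Benjamini-Hochberg adjusted p = 0.023).

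Cell cycle genes fell as a list, with 48 of 71 tested genes lower and none higher. Under TPM and size factors 50 and 46 were lower, and none higher. In this list 2 genes, CENPF and WEE1, carried a member, beside 1678 of all 12302 tested genes. Genes of cell division outside the list carried members too, among them CEP55, CENPS and CKS1B, as given above. WEE1, a mitotic inhibitor kinase, had a fold enrichment of 2.54 and 3.15. Its mRNA was at 7.37, 8.30 and 6.52 FPKM in GM and 5.17, 5.35 and 5.15 FPKM in DM, lower in each library but not past 1.5-fold. In the sterol and fatty acid list 16 of 31 tested genes rose and none fell, and 3 carried a member: SQLE, INSIG2 (5.21 and 4.58) and FADS2 (7.89 and 6.60).

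Of 78 ribosomal protein and elongation factor genes, 3 carried a member: RPL22 (3.92 and 4.94), RPS28 (1.85 and 2.10) and RPS24 (3.44 and 3.58). The GM peaks of RPL22 and RPS24 were annotated to the 3′UTR and lay inside longer DM peaks. The RPL22 DM peak itself lay 1690 bases from the annotated start. No gene of that list rose, while 11 fell by FPKM and 1 by TPM. Of 37 initiation factor genes 1 fell and none rose, and 8 of them carried a member each. EIF4G3, a scaffold of the cap-binding complex, was lower in DM, 2.80 and 1.60, while its 3′UTR pair went from 2.42 to 3.69. EIF3B had 5.15 and 4.73, EIF2S2 1.87 and 2.08, and PABPC1, the poly(A)-binding protein, 1.45 and 1.07.

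Stress response genes carried 5 members, 1 higher and 1 lower past 1.5-fold, beside 14.3% and 9.03% of all members. In mRNA 2 of 36 tested genes rose and 2 fell, beside 4.89% and 6.88% of all tested genes. SESN2, a stress-induced inhibitor of growth signalling (chr2:125131900-125132377), had a fold enrichment of 6.53 in GM and 17 in DM, both on steps, with a GM false discovery rate above 0.05. SESN2 mRNA was at 25.6, 25.8 and 25 FPKM in GM and 18.4, 23.1 and 23.2 FPKM in DM, lower in each library but not called (limma, Benjamini-Hochberg adjusted p = 0.0571). NFE2L2 moved the other way in m6A, as given above, with mRNA at 34.1, 33.7 and 29.9 FPKM in GM and 39.6, 43.1 and 43.8 FPKM in DM. Its DM libraries were all higher, but the log2 fold change of 0.36 was below the 1.5-fold limit. The chaperone gene DNAJB4 had 2.72 and 3.82, and its mRNA rose by 0.76 ± 0.11 on the log2 scale (limma, Benjamini-Hochberg adjusted p = 0.000763). HSPH1 had 1.31 and 1.63 and HMOX1, heme oxygenase, 1.54 and 1.76.

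Immediate early and growth response genes carried 10 members, of which 4 were lower in DM and none higher, with a median log2 ratio of -0.28. Over all members 9.03% were lower and 14.3% higher, with a median of 0.11. Of 39 tested genes of that list 8 rose and 2 fell in mRNA (11 and 1 by TPM). EGR3 held a pair of these, at 8.71 and 2.66 next to the transcript start, with a false discovery rate above 0.05 in both lists, and at 5.35 and 3.26 further in. NR4A3, a nuclear receptor gene, had 12 and 6.47 and CCN2, a matricellular growth factor gene, 1.89 and 1.17. CCN2 mRNA was at 817, 793 and 828 FPKM in GM and 1229.9, 1363 and 1447 FPKM in DM. All its DM libraries were higher (limma; 0.72 ± 0.07 on the log2 scale, Benjamini-Hochberg adjusted p = 7.83e-05). NR4A3 mRNA rose by 0.84 ± 0.10 on the log2 scale (limma, Benjamini-Hochberg adjusted p = 0.000374), at 0.742, 0.923 and 0.659 FPKM in GM and 1.80, 2.48 and 2.30 FPKM in DM. The RNA-binding repressor gene ZFP36L2 had 7.87 and 9.59 and its relative ZFP36L1 3.87 and 3.11.

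Wnt, Notch and TGF-beta genes carried 11 members, 2 of them higher in DM and none lower, beside 14.3% and 9.03% of all members. In mRNA 12 of 68 tested genes rose and 12 fell (16 and 12 by TPM). SMAD1, a signal transducer of bone morphogenetic proteins, had a fold enrichment of 3.81 and 14.9 in the upstream member (chr17:12792123-12823604), where a GM peak of 181 bases lay inside a DM peak of 720, and 4.24 and 3.25 in the downstream one. TGFB1, a ligand gene, had 4.31 and 6.92 over an identical stretch of 1344 bases (chr18:50504141-50508692), neither on a step. SMAD1 and TGFB1 mRNA were not called. TGFB2 had 4.13 and 5.45, the antagonist gene GREM1 2.64 and 3.02 and the Wnt scaffold gene AXIN1 3.46 and 3.81.

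Chromatin regulators carried 14 members in 14 genes, 2 higher and 2 lower past 1.5-fold, beside 14.3% and 9.03% of all members. None of these genes was called in mRNA, beside 10.4% of all tested member genes. In the whole list 3 of 75 tested genes fell and none rose (1 by TPM), beside 6.88% and 4.89% of all tested genes. ARID1A, a SWI/SNF remodeller subunit, had 7.33 and 19.3 in peaks of 2365 and 2395 bases (chr2:126449013-126477461). TET3, a methylcytosine oxidase gene, had 4.82 and 10.6. The demethylase gene KDM5B had 4.14 and 1.78 and the Polycomb gene RING1 2.30 and 1.5, while EHMT1 had 2.39 and 3.19 and BMI1 8.51 and 6.39.

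Many member genes were methylated elsewhere too. Of the 1821 genes, 777 (42.7%) held another shared pair outside the 5′UTR, and 603 held it in the 3′UTR. In the 522 genes with exactly 1 pair in each, the 3′UTR pair was usually the stronger. Its median fold enrichment was 3.65 in GM and 4.06 in DM, against 3.15 and 3.38 for the 5′UTR pair, which was the higher of the 2 in 220 genes in GM (42.1%) and 211 in DM (40.4%). The ratios at both ends were weakly related, with a Spearman rho of 0.12 and a Pearson r of 0.10 over 522 genes that share all libraries. Both ends were past 1.5-fold in 44 genes: higher in 19, lower in 9, higher only at the 5′UTR and lower at the 3′UTR in 10, and the reverse in 6.

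Opposite moves at another shared pair were found in 23 member genes in all. Values on a step are not marked for these pairs, and the depth behind each value is unknown. In NOL12, a nucleolar protein gene, the 5′UTR pair went from 1.90 to 4.79 and the 3′UTR pair from 24 to 2.23. MAP1LC3C, an autophagy gene, had 1.74 and 3.73 in the 5′UTR against 41.4 and 4.61 in the 3′UTR, and ZNF526 1.63 and 2.71 against 35.9 and 6.85. WDR25 was at 2.72 and 18.1 in the 5′UTR and at 3.81 and 1.90 in the 3′UTR, where the DM false discovery rate was above 0.05. CCNL1, a cyclin of RNA processing, moved the other way, with 5.63 and 2.26 in the 5′UTR and 2.88 and 7.45 in the 3′UTR. MAP1LC3C mRNA was at 1.81, 1.4 and 1.37 FPKM in GM and 0.455, 0.206 and 0.275 FPKM in DM. It was lower in each DM library (limma; -0.95 ± 0.11 on the log2 scale, Benjamini-Hochberg adjusted p = 0.000226).

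**Figure D5:**
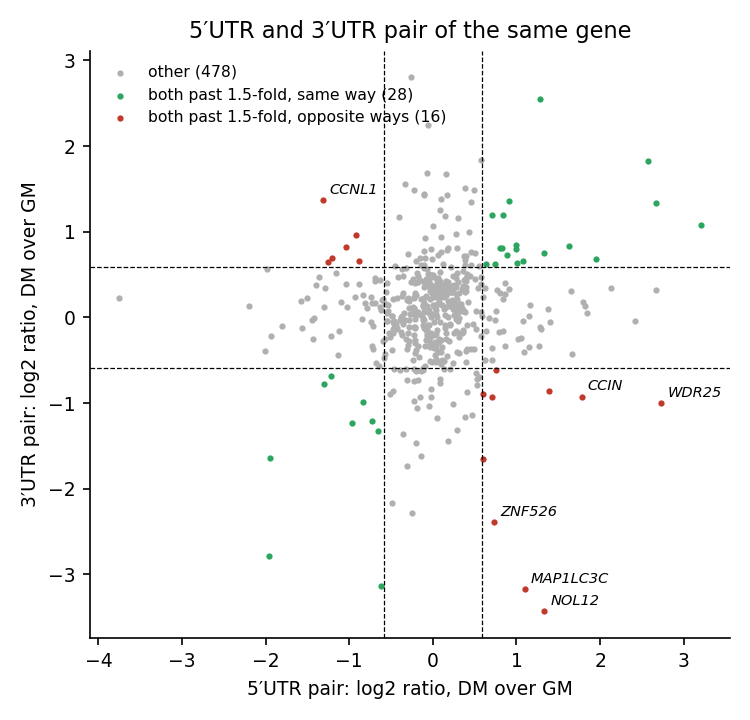
Log2 ratio of fold enrichment, DM over GM, of the 3′UTR pair (y axis) against that of the 5′UTR pair (x axis) in 522 genes with exactly 1 pair of each, with dashed lines at 1.5-fold. Most genes lie in the centre, 28 are past the lines in the same direction (green) and 16 in opposite directions (red), of which NOL12 and MAP1LC3C are lowest.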

How the data were processed

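Total RNA from 3 GM and 3 DM cultures was made into strand-specific input and m6A IP libraries. Per the study's methods, reads were trimmed, aligned to ARS-UCD1.2 with HISAT2 and filtered to unique, non-duplicate alignments, and ChIPseeker gave the annotation. The methods name MACS2 for peaks of each sample and exomePeak for peaks of the growth and differentiation conditions; how libraries were combined is not given in the sources used here. The labels list cutadapt and fastp, whereas the methods name Trimmomatic. The authors deposited 1 peak list per group, with a linear ratio of IP over input (fold enrichment), an unadjusted p-value of at most 0.05, and log10 columns of the p-value and the false discovery rate. The gene table holds FPKM that the authors computed with StringTie from the input libraries, with sums of 386436.5 to 434458.3 per library. It holds no counts, so the number of reads behind a gene's value, or behind a peak's, is unknown here.

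Pairs were formed from exon blocks, and 2 repeated rows of the DM list were left out. A ratio past 1.5-fold was counted as higher or lower without a test. mRNA was tested with limma 3.58.1 (R 4.3.3), with a variance trend, on log2(FPKM + 1) over the genes that averaged 0.5 FPKM or more. Fold changes are on that scale, which understates low genes. A call needed a Benjamini-Hochberg adjusted p under 0.05 and a fold over 1.5. On simulated data with 200 of 12302 genes changed 2-fold, 94% were recovered and 4 unchanged genes were called. Alternatives covered scaling, filters, pseudocount, thresholds, overlap, annotation and left-out libraries.

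The members and the 11 gene lists and 8 marker lists were chosen with earlier results of these data known. Genes were named by a fixed rule: the 10 highest and 10 lowest ratios, the 10 strongest peaks, up to 6 members per list, the 5 largest mRNA changes per combination of directions, the myogenesis genes of the study, the smallest overlaps, and 6 genes with opposite pairs. Of the member genes, 61 had no symbol, and 0 of them matched the RefSeq table. Base sequences of the peaks were not analysed here.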

Additional observations from a re-analysis of the deposited data

How the results depend on the processing

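The number of members past 1.5-fold followed the choice of pairs. It was 284 (99 lower) of 1486 with a false discovery rate under 0.001 in both lists and 157 (80 higher, 77 lower) of 1005 with at least 80% shared. Chosen after seeing the data, identical extent gave 33 (20 higher, 13 lower) of 194, pairs off the steps gave 240 (148 higher, 92 lower) of 1467, and pairs covering the start had 99 lower of 1302. The 2-fold threshold left 200 (115 higher, 85 lower). DM peaks covered the annotated start in 71.9% of members at the stricter false discovery rate and 71.3% with 50% shared, were longer in DM in 70.9% at that rate and 64.0% with the 5′UTR in both lists, and held several exon blocks in 80.8% and 76.7% at the same rate and shared part. These alternatives keep fewer or other pairs by construction; no other cause was tested.

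With TPM, 1046 of all genes and 124 member genes were called higher. Leaving out each library gave 1456 to 1505 calls over all genes (602 to 621 higher, 845 to 884 lower) and 174 to 179 in member genes (75 to 81 higher, 95 to 100 lower). Replicate numbers did not pair the libraries (correlations of deviations -0.08, -0.12 and -0.21), and with the replicate number as a block 1459 genes were called (603 higher, 856 lower), 174 of them member genes (78 higher, 96 lower); TCAP was the only named gene to gain a call. Over 107 named genes and 14 alternatives, 1482 mRNA results kept direction and call, 8 gained a call, 2 lost it (FABP7, and ANPEP without DM replicate 2) and 0 reversed. With 1 list per group, no error could be set on any m6A ratio.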
